A study of Rattus norvegicus with 18 samples.

Results

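The control side striata of rats given L-DOPA + Riluzole (L-DOPA + R) were compared with those of rats given L-DOPA alone, which asks what the added drug did to DNA methylation in the striatum that was not lesioned. The comparison held 6 of the 18 striata of the series, 3 per group, each from another rat. All were striata of juvenile male Wistar rats that had received 6-hydroxydopamine (6-OHDA), a toxin of catecholaminergic neurons, into the medial forebrain bundle of the other hemisphere at postnatal day 21. The toxin was thus carried by both groups, and "control side" means the contralateral striatum of a lesioned rat and not the striatum of an intact animal. The dose of L-DOPA was 6 mg/kg, together with benserazide (15 mg/kg), a blocker of its conversion outside the brain, and L-DOPA + R rats were also given Riluzole at 6 mg/kg. Riluzole was dissolved in Tween, so that the drug and its vehicle cannot be told apart. Treatment ran from day 35 to day 49 with 6 administrations, and the striata were taken at day 53, shortly after a final dose. Untreated (UNT) rats with the same lesion, also 3, are given for orientation. Methylation was read by reduced representation bisulfite sequencing (RRBS), in which DNA is cut at CCGG, bisulfite turns unmethylated cytosine into thymine, and the share of reads that keep a cytosine is the methylation level. A piece of striatum holds neurons and glia, and RRBS gives no level of their marker genes' transcripts, so the cell make-up could not be checked. A shift in the share of a cell type and a change of methylation within cells cannot be told apart.

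Methylation of CpG cytosines is placed by DNA methyltransferases and, in promoters rich in CpGs, is as a rule low where the gene can be transcribed, while CpGs between genes and in gene bodies are mostly methylated. L-DOPA is converted to dopamine, which acts in the striatum through receptors that raise or lower cAMP, and its repeated use leads to dyskinesia. Riluzole blocks voltage-gated sodium channels and lowers the release of glutamate.

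CpGs were kept if a cytosine had 10 or more reads, both strands of a CpG were summed, and a CpG had to be present in all 6 striata, which left 378782 CpGs. The deposited calls summed to between 18471279 and 30764504 per L-DOPA striatum and to between 19383285 and 24303219 per L-DOPA + R striatum. The median depth per tested CpG ran from 20 to 35 reads. Methylation of the unmethylated spike-in control was 0.36 to 0.429% in L-DOPA and 0.429 to 0.513% in L-DOPA + R. Across the tested CpGs, the correlation of methylation was 0.97 to 0.976 within L-DOPA, 0.958 to 0.964 within L-DOPA + R and 0.96 to 0.971 between the groups, so that pairs of rats from different groups lay within the range of pairs of the same group. CpGs are not independent, and the values describe pairs of libraries.

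Mean methylation did not separate the groups. Over all tested CpGs it was 47.0, 47.1 and 45.8% in the L-DOPA striata and 44.9, 45.5 and 46.5% in the L-DOPA + R striata. The third L-DOPA striatum lay below the third L-DOPA + R striatum, and the groups overlapped. The means were 46.6% ± 0.709 and 45.6% ± 0.81 (SD, n = 3), a difference of -0.973 points (exact permutation test, two-sided, p = 0.2, where 3 against 3 striata cannot go below 0.1). From summed reads, in which deep CpGs weigh more, it was -5.42 points, with the same p of 0.2 in the exact permutation test. The difference was -2.96 points at the 89021 CpGs of intermediate methylation (20 to 80%), -0.212 points at the 157639 CpGs under 20% and -0.541 points at the 132122 CpGs over 80%. None of the 10 sets of CpGs compared in this way had an adjusted p under 0.222 (exact permutation test with Benjamini-Hochberg adjustment).

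Few sites were called as different. Of the 378782 CpGs, 100 (0.0264%) were differentially methylated sites (DMS), that is, CpGs with q under 0.01 by a chi-square test in a logistic model of the reads that corrects for overdispersion. Added Riluzole went with less methylation at 50 of them and with more at 50, 0.0132% of the tested CpGs in each direction. At all 100, every L-DOPA + R striatum lay on one side of every L-DOPA striatum, as was the case for 7.16% of the tested CpGs. DMS differed by a median of 41.2 points in size and all CpGs by 2.35 points, and the difference was 25 points or more at 83 DMS, compared with 0.479% of all CpGs. The DMS were covered by a median of 28 reads, close to the 26 of all CpGs. With an F test, which allows for the few striata, 0 CpGs passed, and the unadjusted p was under 0.05 at 4369. With 3 striata per group and the usual depth, this test can hardly reach q under 0.01 over so many CpGs. Its count of 0 therefore decides nothing about single sites. The q-values below are those of the logistic model with the chi-square test and Benjamini-Hochberg adjustment over all tested CpGs, and p-values rest on 3 rats per group. The count moved with single striata: 195 CpGs were called without the third L-DOPA + R striatum and 153 without the second L-DOPA striatum.

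Sites that lost methylation in L-DOPA + R were led by an intergenic CpG of chromosome 1, at 199636834 of the rat genome build rn6. Methylation was 43.8, 44.1 and 46.8% in the L-DOPA striata and 0% in each L-DOPA + R striatum (difference -45.3 points, q = 1.09e-25). The 158 reads of L-DOPA + R, with 0 methylated, allow a level of up to 1.9%. At 101534020 of chromosome 10, methylation was 43.2, 40 and 47.2% in L-DOPA and 0% in each L-DOPA + R striatum (-43.8 points, q = 3.47e-13). A pair of intergenic CpGs of chromosome 2 showed the same pattern. At 142742283, methylation was 36.8, 33.3 and 39% in L-DOPA, and at 142732476 it was 48.3, 55.6 and 58.8%, while it was 0% in all L-DOPA + R striata at both (q = 1.65e-10 and 1.18e-08). Here the UNT striata were also at 0%, so the L-DOPA rats stood apart from the other two groups. The same held at 77931839 of chromosome 10, with 43.3, 50 and 47.1% in L-DOPA and 0% in every L-DOPA + R and UNT striatum (q = 6.21e-07). Not every loss ended at 0%: at 148470139 of chromosome 1, methylation fell from 91.5, 90 and 91.6% to 57.1, 22.2 and 53.5% (q = 2.34e-07). The depth differed there too, with 200, 160 and 214 reads in L-DOPA and 21, 27 and 43 in L-DOPA + R, and its part in the result was not tested.

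Sites with higher methylation in L-DOPA + R were mostly unmethylated in L-DOPA. At 14831126 of chromosome 16, methylation was 0% in each L-DOPA striatum and 63, 62.8 and 66.7% in L-DOPA + R (64.2 points, q = 1.1e-16), and 0% in each UNT striatum. A CpG at 14837517 of the same chromosome had 0% in all L-DOPA and UNT striata and 30, 37.5 and 70.3% in L-DOPA + R (q = 0.000165). The difference was largest at 123715243 of chromosome 6, with 0% in each L-DOPA striatum and 80, 100 and 100% in L-DOPA + R (95 points, q = 4.89e-13). This site had 10 to 25 reads per striatum, and the exact 95% binomial interval of the striatum at 80% ran from 44.4 to 97.5%. Intervals and limits of this kind cover counting error only, since PCR copies were not told apart. At 161534682 of chromosome 3, methylation was 0% in each L-DOPA striatum and 39.6, 47.7 and 27.7% in L-DOPA + R (q = 1.48e-21). An exception to this pattern was 77422220 of chromosome 1, where methylation rose from 52.3, 60.9 and 47.3% to 96, 100 and 100% (q = 1.81e-11).

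**Figure D1:**
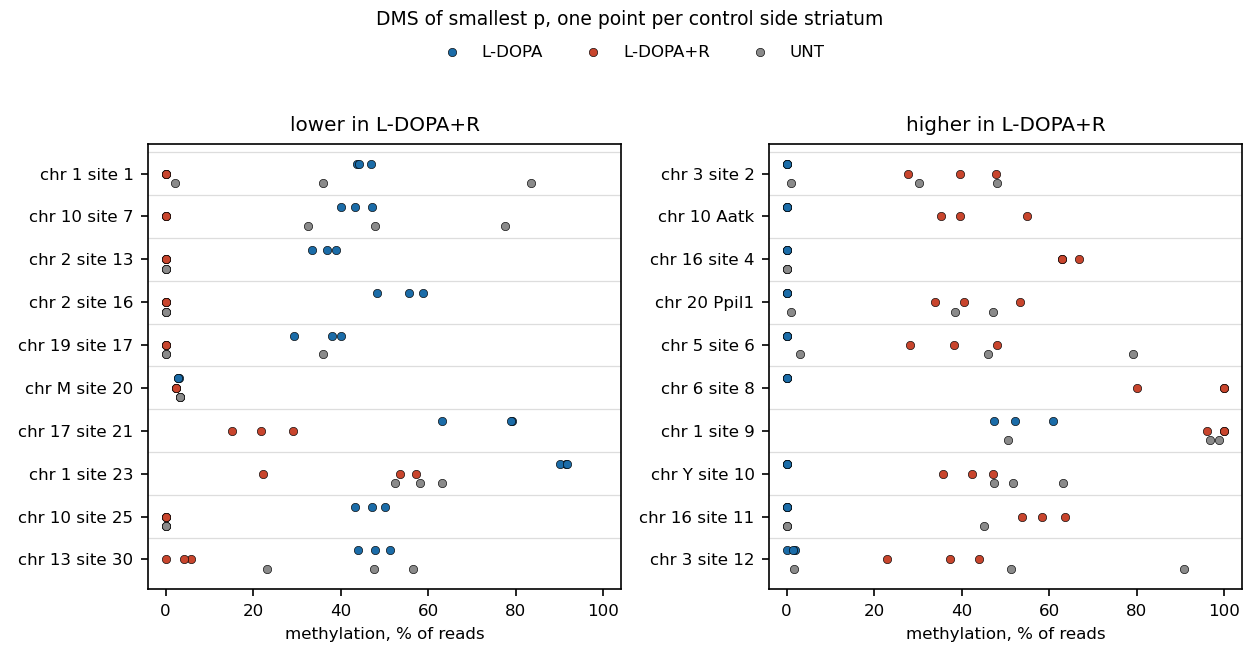
Methylation in percent of reads (horizontal axis) of the 10 DMS of smallest p in each direction, with 1 point per control side striatum of L-DOPA (blue), L-DOPA + R (red) and UNT (grey). Sites are named by chromosome and gene, or by their rank by p among the 100 DMS, and UNT points are missing where UNT had under 10 reads. At most sites 1 drug group lies at 0% in all 3 striata, while the UNT striata often spread from one group to the other.

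Seen over all DMS, 26 of the 50 higher sites had no methylated read in any L-DOPA striatum, where L-DOPA + R striata ranged from 9.38 to 100%. Likewise, 15 of the 50 lower sites had no methylated read in any L-DOPA + R striatum, with 4.27 to 71.4% in L-DOPA. Of all tested CpGs, 18.3% had no methylated read in L-DOPA and 19.01% had none in L-DOPA + R. Intermediate mean methylation was found at 68 DMS and at 23.5% of all CpGs. Among the 68, all 6 values lay within 10 points of 0, 50 or 100% at 10 (14.7%), compared with 1.49% of all CpGs of intermediate methylation. The call favours groups that are uniform, such as at 0%, so this is a description. Bisulfite reads show a C-to-T variant of the sequence and an unmethylated cytosine alike. Genotypes of the rats were not measured here, and their part in the result was not tested.

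UNT rats did not take one side. Of the 93 DMS with all 3 UNT striata covered, the UNT values overlapped those of L-DOPA alone at 33, those of L-DOPA + R alone at 35, both at 11 and neither at 14. At the 46 higher sites among these, the UNT mean was nearer to L-DOPA + R at 31, and at the 47 lower sites it was nearer to L-DOPA at 28. The UNT striata were themselves far apart at many DMS, with a median range of 17.2 points, compared with 5.45 points within L-DOPA and 10.8 points within L-DOPA + R. At 199636834 of chromosome 1, for example, they had 83.5, 36 and 2.26%. UNT reads reached 49 bases past another cytosine and those of both drug groups 50 bases, so that UNT levels are given as a description.

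At some DMS the groups were not read on the same strand. At 11 of the 100 DMS, one strand of the CpG reached 10 reads in all 3 striata of one group and in none of the other, which was the case for 0.334% of all tested CpGs. At 9 of these, the other strand was read in all 6 striata, and there the difference was 10.05 points or less in size at every site and none was called. The remaining pair, at 41851428 and 41851478 of chromosome 17, had no strand that all striata shared. Without these 11 sites, 45 lower and 44 higher DMS were left, but the mix of strands can differ between the groups there too. At 10250837 of chromosome 14, the plus strand reached 10 reads in 2 L-DOPA and 0 L-DOPA + R striata. The difference was -35.7 points with strands added up and -8.47 points on the minus strand (q = 0.644). Outside the 11 sites, 88 DMS had a strand read in all 6 striata, and 79 of these were called on such a strand alone. At 68 of the 100 DMS, however, only a single strand was read. The call on that strand repeats the same reads there and is no check. Of the 20 sites in the plot of values by striatum, 19 were called on a strand alone, all but 111166311 of chromosome 13. At that site, methylation was 51.2, 47.8 and 44% in L-DOPA and 0, 5.88 and 4.17% in L-DOPA + R with strands added up, but 0, 0 and 0% against 0, 5.88 and 4.17% on the plus strand.

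**Figure D2:**
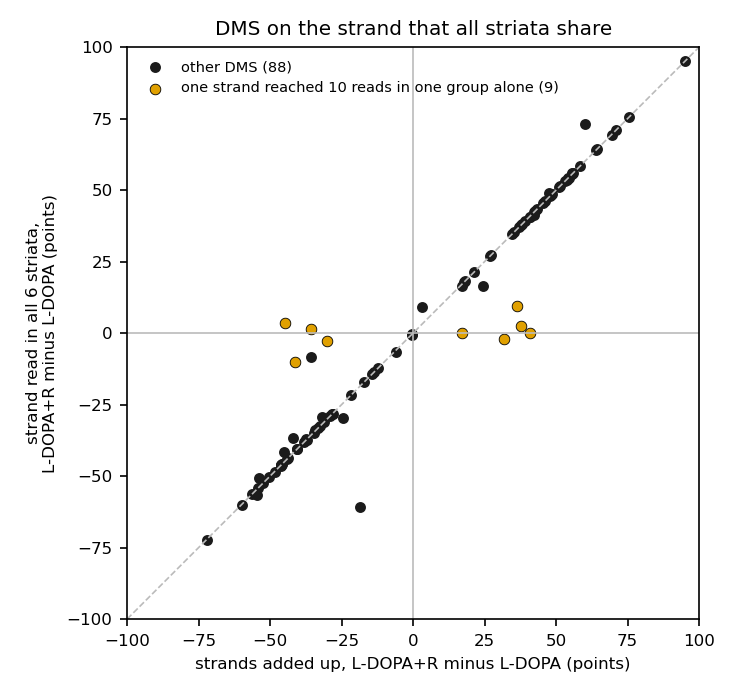
Difference L-DOPA + R minus L-DOPA in points at the 97 DMS with a strand read in all 6 striata, with both strands added up (horizontal axis) and on that strand alone (vertical axis; the strand of smaller p where both were read). The 88 black points lie mostly on the dashed line of equal values, as they must at the 68 DMS read on a single strand. The 9 yellow points, where one strand reached 10 reads in one group alone, lie within 10.05 points of 0 on the shared strand.

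The strand bears on most of the close pairs of DMS. Neighbouring DMS at most 100 bp apart occurred in 4 places, and only at 118727474 and 118727509 of chromosome 6, 35 bp apart, did both change in one direction. At the first of these, methylation was 52.6, 68.2 and 52.8% in L-DOPA and 0, 0 and 11.8% in L-DOPA + R (q = 0.000214). At the second, it was 20.3, 24.1 and 22.2%, against 1.15, 2.63 and 6.76% (q = 1.71e-05). This second CpG was read on both strands in all 6 striata, and they differed: the minus strand had 54.5, 66.7 and 76.2% in L-DOPA and 0, 0 and 12.5% in L-DOPA + R (-60.7 points, q = 0.000131), while the plus strand had 4.26, 0 and 3.33% against 1.33, 3.17 and 5.17% (0.283 points, q = 1). Both were intergenic. In the other places, on chromosomes 4, 14 and 17, the DMS were 49 or 50 bp apart and changed in opposite directions, and all 6 are among the 11 sites with a strand of one group only.

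Gene names were taken from the annotation columns of the study's lists of sites, which held 67 of the 100 DMS. Of these, 48 were intergenic, 15 in introns, 3 in promoters and 1 in an exon. The lists hold sites that the study called in its own comparisons of the same rats, so these shares describe the DMS and give no rate.

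Of the promoter and exon sites, 3 were read on a single strand, the same in all 6 striata, so no other strand could check them. In the promoter of Mab21l3, at 204255609 of chromosome 2, methylation was 29.4, 33.3 and 41.2% in L-DOPA and 0% in each L-DOPA + R and UNT striatum (-34.8 points, q = 0.000513). In the promoter of Cb707485, at 3534263 of chromosome 20, it was 0, 0 and 4.76% in L-DOPA and 29.7, 34.6 and 50% in L-DOPA + R (q = 0.000246). The exon site belonged to Notch4, a receptor of the Notch pathway, at 4350026 of chromosome 20, which the list also places in an intron of C4a, a complement component. Methylation there was 0% in each L-DOPA striatum and 47.4, 76.2 and 34.6% in L-DOPA + R (q = 0.000463). The promoter site of Mir29b1, which encodes miR-29b, known to repress transcripts of DNA methyltransferases, was at 58344743 of chromosome 4. With strands added up, it had 0% in each L-DOPA striatum and 9.38, 18.4 and 22.2% in L-DOPA + R (q = 0.0007). On the minus strand, the one read in all 6 striata, it had 0% in every striatum of both groups. The plus strand reached 10 reads only in L-DOPA + R.

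The intronic sites are given gene by gene, in an order chosen after their values were seen. In Tiam1, an exchange factor of Rac1 with a role in dendritic spines, methylation at 29986999 of chromosome 11 was 0% in each L-DOPA and UNT striatum and 55.6, 61.1 and 40% in L-DOPA + R (54.3 points, q = 1.15e-08). In Vav1, an exchange factor known from blood cells, it was 0% in each L-DOPA striatum and 33.3, 30.4 and 45% in L-DOPA + R (at 9659522 of chromosome 9, q = 1.16e-07). For Vav1 no strand was read in all 6 striata.

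In Ptger3, the EP3 receptor for prostaglandin E, which lowers cAMP, methylation at 263962140 of chromosome 2 was 94.3, 97.7 and 89.3% in L-DOPA and 65.9, 71.8 and 76.5% in L-DOPA + R (-21.8 points, q = 0.00406). The UNT striata lay between the groups, at 84.5, 87.8 and 87%. In Ptges, which makes prostaglandin E, methylation at 9734873 of chromosome 3 was 0% in each L-DOPA striatum and 77.3, 29.4 and 53.3% in L-DOPA + R (q = 0.00129).

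Lower methylation was also found in an intron of Ptpa, an activator of protein phosphatase 2A, at 8998228 of chromosome 3, with 100, 93.3 and 100% in L-DOPA and 0, 33.3 and 41.2% in L-DOPA + R (-72.2 points, q = 0.00129). Higher methylation was found in Aatk, a kinase first described in apoptosis, at 109198811 of chromosome 10, with 0% in each L-DOPA striatum and 54.8, 35.3 and 39.5% in L-DOPA + R (q = 1.89e-19). In Ggt7, of the gamma-glutamyltransferase family, it was 0% in each L-DOPA striatum and 76.3, 91.5 and 42.6% in L-DOPA + R (at 151012138 of chromosome 3, q = 6.82e-05). Dis3l2, an exoribonuclease, rose from 50, 55.6 and 43.8% to 85, 88.9 and 100% (at 93914371 of chromosome 9, q = 0.00128). Fam110a, at 147484828 of chromosome 3, had 0% in L-DOPA and 35.7, 48.1 and 39.1% in L-DOPA + R with strands added up, but 0% in all 6 striata on the plus strand, the only one read in all of them. In Dcdc2, a doublecortin domain gene of neuronal migration, the site at 41851478 of chromosome 17 had 3.85, 0 and 0% in L-DOPA and 100, 90 and 52.2% in L-DOPA + R (q = 0.00791). The plus strand was read in all 3 L-DOPA striata and in 1 of L-DOPA + R, and the minus strand in L-DOPA + R only.

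With strands added up, all 9 DMS of chromosome 20 were higher in L-DOPA + R, and 8 of these lay within 3.34 Mb, from 3451695 to 6793842. This stretch holds part of the rat major histocompatibility complex. Chromosome 20 carried 3.38% of the tested CpGs and 9% of the DMS. The DMS outside the stretch, at 46083801, differed by 3.05 points with strands added up. It was called on neither strand alone, with -0.641 points on the plus strand and 9.0 points on the minus strand. The minus strand had 2012, 1218 and 2225 reads in L-DOPA and 32, 31 and 32 in L-DOPA + R. In 6 of the 8 sites, no L-DOPA striatum had a methylated read. The 8 include the sites of Cb707485 and Notch4 above and one in Btnl2, a gene of the butyrophilin family that dampens T cells, with 0% in each L-DOPA striatum and 33.3, 39.4 and 50% in L-DOPA + R (at 4149526, q = 3.54e-09). In Wdr46, a nucleolar protein gene, L-DOPA + R striata had 53.3, 44.4 and 58.3% and L-DOPA striata 0% (at 5453516, q = 3.09e-06). The lists place 3 more in an intron of Ppil1, a cyclophilin of the spliceosome. At 6793842, L-DOPA + R striata had 40.6, 53.2 and 34%, at 6652149 they had 33.3, 12 and 23.1%, and at 6768627 they had 100, 77.8 and 41.2%, against 0% in all L-DOPA striata (q = 1.1e-16, 0.00123 and 0.00877). UNT striata were methylated as well at most of them, with 50, 54.5 and 31.1% in Btnl2, 51.4, 50 and 62.9% in Wdr46 and 51, 58.8 and 46.8% in Notch4. At 6793842 in Ppil1, however, they had 38.5, 47.1 and 1.11%, so that 1 UNT rat lay near the L-DOPA rats. The other tested CpGs of the stretch went both ways, with a median difference of 0 points, and 7.02% of them had an unadjusted p under 0.05, compared with 6.69% of all tested CpGs. Just outside the threshold, a CpG at 5560424 went the other way, with 58.8, 68.8 and 58.3% in L-DOPA and 15.4, 27.3 and 0% in L-DOPA + R (-48.3 points, q = 0.0186). Another in the intron of Wdr46, at 5453658, had 0% in each L-DOPA striatum and 36.4, 21.4 and 18.2% in L-DOPA + R (q = 0.0345). The stretch was singled out after its values were seen.

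**Figure D3:**
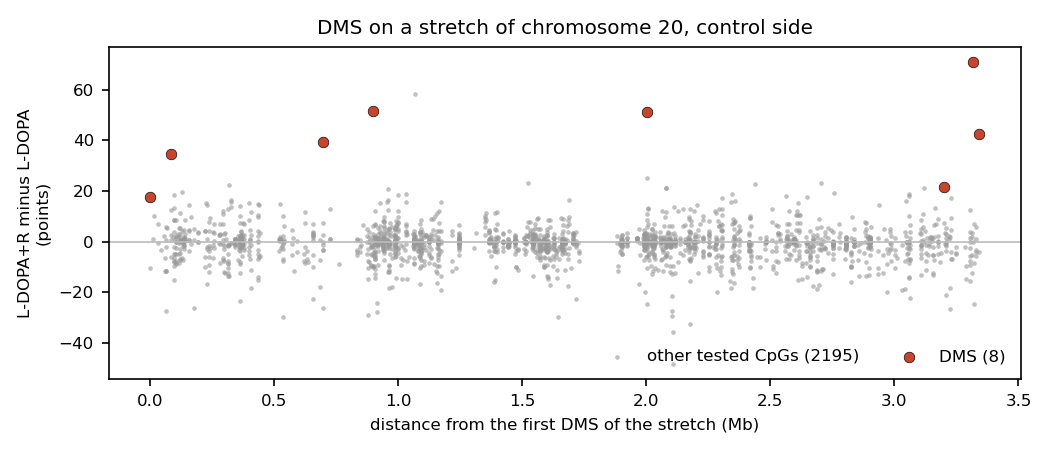
Difference L-DOPA + R minus L-DOPA in points (vertical axis) at the tested CpGs of the chromosome 20 stretch, by distance from its first DMS in Mb (horizontal axis). The 8 DMS (red) lie between 17.8 and 70.8 points, among other CpGs (grey) with a median difference of 0 points.

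Outside the autosomes, a CpG at 3059918 of chromosome Y had 0% in each L-DOPA striatum and 42.3, 47.2 and 35.7% in L-DOPA + R (q = 4.92e-11), with 63.2, 51.7 and 47.3% in UNT. In the mitochondrial genome, 2 of 17 CpGs were DMS (0.0264% over all CpGs), with small differences at high depth. The 17 went both ways: 9 had negative differences and the rest positive ones. Just outside the threshold, methylation was also lower at 8883 (-0.341 points, q = 0.0386) and 8685 (-0.461 points, q = 0.0394). Among the positive differences, the smallest p was that of 8865 (0.0878 points, q = 0.503). At 12875, methylation was 2.85, 3.02 and 2.9% in L-DOPA and 2.3, 2.43 and 2.48% in L-DOPA + R (-0.526 points, q = 7.17e-08, 27222 to 65539 reads per striatum). At 12761, the difference was -0.397 points (q = 4.61e-05). The level of the unmethylated spike-in, 0.36 to 0.513%, is of the size of these differences. It was 0.36 to 0.429% in L-DOPA and 0.429 to 0.513% in L-DOPA + R, and the part of conversion in the result was not tested.

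The other striatum of the same rats was then examined. Between the lesioned striata of the same rats, 107 of 377092 CpGs (0.0284%) were DMS. Of the 100 control side DMS, 81 could be tested there, and 41 (50.6%) were called, all in the same direction. These were 44.6% of the 92 lesioned side DMS that were tested on both sides. Of all CpGs tested on both sides, 0.0303% were called on the lesioned side. Among the 11 sites with a strand of one group only, 6 were tested on the lesioned side and 0 were called. Of the other DMS, 75 were tested and 41 were called (54.7%). Sites with higher methylation were called more often, 24 of 41, than sites with lower methylation, 17 of 40, without a test of that difference. For the lower sites, the median difference was -35.9 points in control striata, compared with -15.4 points in lesioned ones. For the higher sites it was 42.4 and 40.3 points. The sites were chosen by their control side values, so no smaller effect on the lesioned side is read from these medians. The lesioned striata belong to the same 6 rats, so these calls repeat the measurement in another tissue piece of each rat and add no rats.

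**Figure D4:**
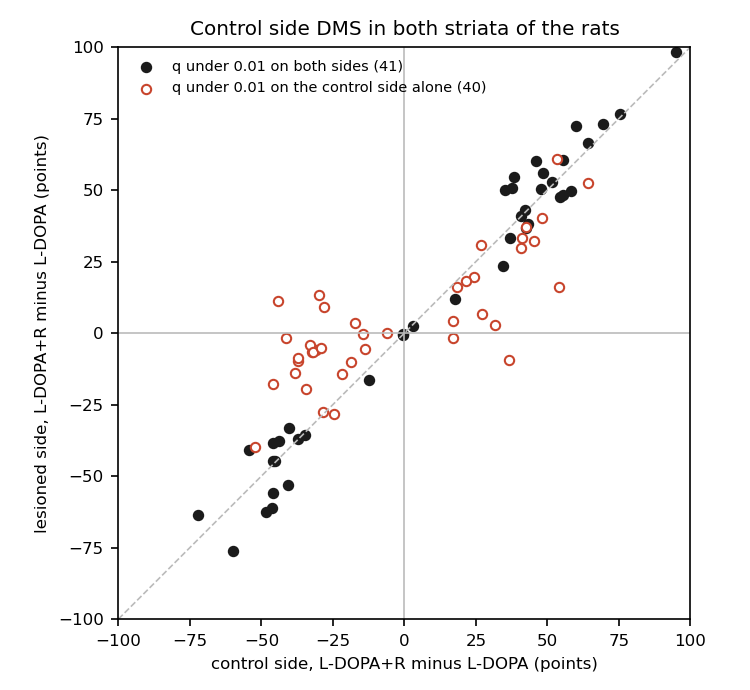
Difference L-DOPA + R minus L-DOPA in points at the 81 control side DMS tested on both sides, for the control side (horizontal axis) and the lesioned side (vertical axis). The 41 black points had q under 0.01 on both sides and lie along the dashed line of equal values. The 40 open points were called on the control side alone and include lower sites whose lesioned side difference was near 0.

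At 199636834 of chromosome 1, the lesioned striata had 46.1, 40.4 and 47.9% in L-DOPA and 0, 0 and 1.14% in L-DOPA + R. In Mab21l3, they had 40, 46.7 and 16.7% and 0% in each L-DOPA + R striatum (q = 2.87e-05). For Tiam1, they had 0% in each L-DOPA striatum and 66.7, 30.8 and 47.1% in L-DOPA + R (q = 1.56e-07). Ptger3 kept its direction (-14.4 points), but q was 0.315 there. For Mir29b1, the lesioned side difference was 4.08 points (q = 0.735).

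Whether the sides differed was tested directly, with a term for treatment by side in 12 striata. Of 303723 CpGs, 2 (0.000658%) had q under 0.01, and neither was a DMS of the control side. Of the 81 control side DMS in this test, 0 had q under 0.01 (the smallest q was 0.0768) and 23 had an unadjusted p under 0.05, and since the same control side values chose these sites, nothing is read from that count. The model takes the 2 striata of a rat as independent. With an F test, 0 CpGs were called, and 8766 had an unadjusted p under 0.05.

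Promoters were also examined as units. RefSeq promoter sequences of the assembly GRCr8, from 250 bases before to 50 after a gene's start, were matched to the called CpGs by the spacing of their CpGs, and 4563 promoters held a tested CpG. They covered 25136 CpGs, 6.64% of those tested, and 0 of the 100 DMS. These windows are not the promoters of the study's lists, which hold 3 DMS (Mab21l3, Cb707485 and Mir29b1). Promoters were mostly unmethylated in both groups, with a median level of 1.05% for L-DOPA against 1.04% for L-DOPA + R, and 4219 (92.5%) had a mean under 5% in both. With the reads of each promoter summed, 0 promoters (0.0%) had q under 0.01 in the same model, while 341 had an unadjusted p under 0.05, of which methylation was lower at 213 and higher at 128. By the F test, 58 had an unadjusted p under 0.05. The difference exceeded 10 points at 14 promoters.

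The promoter of smallest p was that of Nek2, a kinase of the centrosome cycle. Over its 3 tested CpGs, methylation was 33.3, 14.1 and 33.6% in L-DOPA and 1.92, 7.69 and 0% in L-DOPA + R (q = 0.131). The largest difference among the first 30 by p was that of Arf6, a small GTPase of endosomal traffic and of the actin cytoskeleton. Over 4 CpGs it had 45.0, 42.5 and 12.1% in L-DOPA and 1.69, 3.95 and 2.67% in L-DOPA + R (-30.6 points, q = 0.368), and 1 of the L-DOPA rats was well below the other pair. Neither passed the threshold. Their sequences are shown because, among the 30 promoters of smallest p, these had the smallest p and the largest difference. They run 5′ to 3′ on the strand of the gene, with the tested CpGs in capitals.
Nek2, GRCr8 chr13:105936559-105936858, plus strand: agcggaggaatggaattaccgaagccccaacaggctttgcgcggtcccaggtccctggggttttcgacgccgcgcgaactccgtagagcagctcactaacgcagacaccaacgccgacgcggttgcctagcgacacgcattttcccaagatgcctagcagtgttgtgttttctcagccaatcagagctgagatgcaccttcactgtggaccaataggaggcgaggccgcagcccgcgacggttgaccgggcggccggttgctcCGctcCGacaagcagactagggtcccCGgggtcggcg
Arf6, GRCr8 chr6:93589527-93589826, plus strand: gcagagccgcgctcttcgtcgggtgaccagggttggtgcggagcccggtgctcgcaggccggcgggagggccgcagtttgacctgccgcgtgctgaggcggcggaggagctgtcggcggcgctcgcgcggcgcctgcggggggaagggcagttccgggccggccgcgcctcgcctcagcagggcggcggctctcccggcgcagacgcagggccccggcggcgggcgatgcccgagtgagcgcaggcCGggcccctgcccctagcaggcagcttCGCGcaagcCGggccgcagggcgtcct
In Nek2, the CpGs at bases 264 and 269 of this sequence (110511559 and 110511564 of chromosome 13 in rn6) carried the difference, with -28.9 and -28.2 points (q = 0.0895 and 0.134), and the one at base 290 had -5.43 points. In Arf6, the CpGs at bases 247, 274, 276 and 283 differed by -20.0, -36.0, -32.3 and -28.2 points, with the smallest q at base 276 (q = 0.111).

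**Figure D5:**
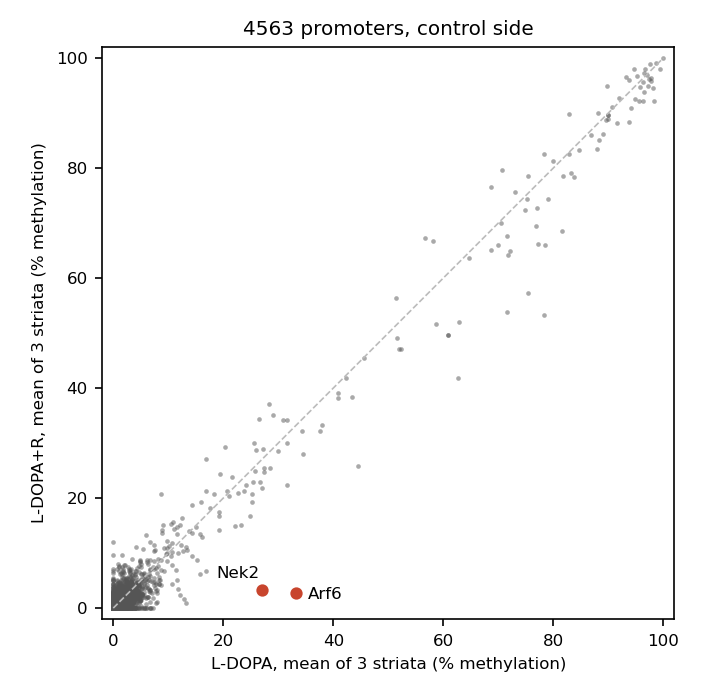
Mean methylation of 4563 promoters in percent, for the 3 L-DOPA striata (horizontal axis) and the 3 L-DOPA + R striata (vertical axis), with 1 point per promoter and the dashed line of equal values. Most points lie near 0% in both groups, and Nek2 and Arf6 (red) lie below the line.

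Genes tied to the drugs' known targets were given as lists. Of 252 listed genes, 44 had a tested promoter. None of these promoters was called. For dopamine and cAMP signalling, 10 promoters had differences from -1.03 to 1.88 points (median 0.155). Adcy5, the main adenylyl cyclase of the striatum, had 0% in each L-DOPA striatum and 0.671, 0 and 0% in L-DOPA + R, and Pde10a, a striatal phosphodiesterase, had 1.54, 0 and 0% against 0% in each. For the glutamate receptor list, 3 promoters ranged from -0.208 to 0.591 points, for the sodium and potassium channels linked to Riluzole, 3 ranged from -0.884 to -0.262, and for the voltage-gated calcium channels, 5 ranged from -0.819 to 0.775. The 4 promoters of the GABA list ranged from -0.335 to 1.11 points and the 8 of the presynaptic list from 0 to 6.19. The 3 promoters of enzymes and readers of DNA methylation ranged from -2.2 to -0.117 points, and the 8 of imprinted genes from -7.8 to 1.66, the lowest value being that of the window shared by Peg10 and Sgce, with means of 60.9% for L-DOPA against 49.7% for L-DOPA + R. Of the marker genes of striatal cell types, only Kdr, a receptor of endothelial cells, had a tested promoter (0.366 points). The median over all promoters was 0 points.

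At positions within these genes that the study lists, 3 DMS were found, Ptger3 in the list of dopamine and cAMP signalling (1 of 10 sites) and Tiam1 and Dcdc2 in the presynaptic list (2 of 18). Of all 831 tested positions that the study lists in genes, 19 were DMS, and of all tested CpGs 0.0264%. The site of Dcdc2 is one of those with no strand that all striata shared. Since the lists of genes and sites were drawn up with these rats' results known, the counts are no independent evidence. None of the 9 sites of the glutamate list was called. The nearest was an intron of Grm8, a presynaptic glutamate receptor, with 73.4, 76.3 and 73.3% in L-DOPA and 95.6, 92.3 and 85.9% in L-DOPA + R (16.1 points, q = 0.134). The groups did not overlap there, as was the case for 7.16% of all tested CpGs. The 3 sites of Grm4, a relative of Grm8, had differences of -11.4, -3.0 and -11.7 points (q = 0.589 to 1). None of the 5 calcium channel sites, 3 sodium and potassium channel sites and 3 GABA sites was called. Asic1, an acid-sensing sodium channel, had 50, 80 and 52.9% in L-DOPA and 16.7, 7.69 and 33.3% in L-DOPA + R (q = 0.322, 10 to 17 reads).

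Of 38 imprinted genes, 2 had tested listed positions, 4 in all, and none was called. Zrsr1, which lies within an intron of Commd1, had 3 CpGs in its promoter with lower methylation in L-DOPA + R in every comparison of striata. Of all tested CpGs, 7.16% had groups without overlap, in either direction. The positions of Zrsr1 come from a list that the study made from the same rats. At 107751102 of chromosome 14, methylation was 64.3, 73.7 and 65.0% in L-DOPA and 34.5, 21.1 and 33.3% in L-DOPA + R (-36.9 points, q = 0.0386). The CpGs at 107751095 and 107751128 differed by -32.4 and -33.9 points (q = 0.152 and 0.0985). In an intron of Igf2r, at 48196298 of chromosome 1, it was 41.0, 35.7 and 36.7%, against 17.6, 3.57 and 11.1% (-29.0 points, q = 0.0617).

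Of 17 genes that the study names, 12 had a tested position, and 3 of these held a DMS (Tiam1, Ptger3 and, without a strand shared by all striata, Dcdc2). The study chose these genes on the same rats, and the shares over all CpGs (0.0264%) and over listed positions in genes (19 of 831) stand against this count. Pigx, of the synthesis of membrane anchors, had 9 CpGs that were at 0% in nearly all L-DOPA + R striata. The site of smallest p had 0, 50 and 24.5% in L-DOPA and 0% in each L-DOPA + R striatum (q = 0.354), so that 1 of the L-DOPA rats was at 0% too and the groups overlapped. Among the 9, the groups were apart only at 71938512 of chromosome 11, with 7.69, 41.7 and 10.7% against 0% in each L-DOPA + R striatum (q = 0.401). Ak5, an adenylate kinase of the brain, had 0% in each L-DOPA striatum and 9.09, 50 and 0% in L-DOPA + R (q = 0.53). Evi5 had 86.2, 86.7 and 87.5% against 96.2, 97.6 and 96.9% (q = 0.362), without overlap, as was the case for 7.16% of all tested CpGs. Reln, the matrix protein reelin, had 2 tested sites. The one of smaller p had 83.8, 54.2 and 58.3% against 85.7, 88.5 and 100% (q = 0.623), and the other had 47.5, 82.1 and 62.2% against 100, 59.1 and 66.7% (q = 1), with overlap. Ncs1, a neuronal calcium sensor, had 0% in L-DOPA and 1.43, 5.56 and 4.62% in L-DOPA + R (q = 0.43). The smallest p of Pde10a gave a difference of -7.09 points (q = 0.858).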

How the data were processed

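RRBS libraries of 18 striata were sequenced as single reads of 50 bp. Per the study's methods and the labels, reads were trimmed with Trim Galore 0.4.0 and aligned to rn6 with Bismark. The deposited tables list, per cytosine, the coverage as counts of reads and the percent of C and T, without scaling or filter. Reads were not marked as molecules, so PCR copies count as reads. Methylated counts were recovered from the percent. Cytosines with 10 or more reads were kept and both strands of a CpG were summed. The model, computed in Python 3.11.15 with scipy 1.17.1, follows the study's methylKit settings: overdispersion from Pearson residuals, not under 1, a chi-square test, q under 0.01 and no minimum difference. Promoters were placed where 8 or more called CpGs, and 90% of those in the window, coincided with CpGs of the RefSeq sequence. Of the placed promoters, 95.3% kept the annotated strand. This step, the stretches of DMS and the checks by strand were added after the files were seen. Regions came from 2970 usable listed positions, and 639 positions given in rounded form were not used. An rn6 genome was not used here.

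Sites named are the 10 DMS of smallest p per direction with one direction in all 9 comparisons of striata, runs of DMS at most 100 bp apart, DMS in promoters, exons or listed genes, and genes the study names. The intronic DMS of other genes, the pair of promoters and the sites outside the threshold were chosen after their values were seen. Members and lists were chosen with earlier results of these data known. Alternatives were another read minimum (5 or 20), strands apart or as a term, an F test, limma 3.58.1 on logits, no overdispersion correction, a coverage limit or scaling, autosomes alone, a replicate block, a minimum difference of 25 points, CpGs missing in 1 striatum per group, leaving out cytosines 46 to 51 bases past another, and leaving out each striatum. The tests were tried on simulated data first. The labels name no batch, library date or culture, and each striatum of a group is from another rat.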

Additional observations from a re-analysis of the deposited data

Results flagged for a closer look

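At 2 CpGs the effect of added Riluzole differed between the sides, in the term for treatment by side (q = 0.0087 at each, logistic model with the chi-square test). At 24760589 of chromosome 18, control striata had 79.2, 81.3 and 70.6% in L-DOPA and 100% in each L-DOPA + R rat, and lesioned striata had 95.5, 100 and 89.5% against 76.5, 71.4 and 80%. Methylation was thus 22.8 points higher on the control side and 18.4 points lower on the lesioned side (-18.4 points), each striatum having 11 to 35 reads. At 221536698 of chromosome 2, control striata had 10, 32.4 and 26.3% against 32.5, 9.68 and 26.8% (-1.16 points), and lesioned striata had 0% in each L-DOPA rat and 38.9, 46.2 and 51.4% in L-DOPA + R (45.5 points), with 15 to 41 reads. With the rat as a term, q was 0.00334 and 0.00575. Neither CpG was a DMS of the control side (q = 0.0252 and 1).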

How the results depend on the processing

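With 100 DMS as reported, 37 were found with a minimum of 20 reads (of 103114 CpGs tested, with 32 of the 34 DMS that could still be tested), 628 without overdispersion correction and 152 when 1 striatum per group could be missing. With the F test there were 0 (4369 CpGs at an unadjusted p under 0.05, smallest q 1) and with limma on logits 0 (19499 CpGs, smallest q 0.0236). Leaving out each striatum in turn gave 85 to 195 DMS and kept 51 to 76 of the 100. The settings not named here or below gave 79 to 121. The mean difference was -5.42 points from summed reads, and -1.38 to -0.627 points with each striatum left out. On the lesioned side, 19 of 33 control side DMS were called with a minimum of 20 reads and 0 of 81 with the F test. Among the named sites, on each strand alone, the difference turned to 3.45 points at 111166311 of chromosome 13 and to 1.49 points at 161590644 of chromosome 4, and the latter also with cytosines 46 to 51 bases past another left out. All 34 named sites that were called lost their call under the F test and under limma. With so few striata and the usual depth, the F test can hardly reach q under 0.01. Its counts of 0 decide nothing about single sites. The cause of these shifts was not tested. The depth of a CpG was as low as 10 reads per striatum.

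With the replicate number as a block, 289 DMS were found, 89 of the 100 among them. The numbers did not pair rats: the deviations of same-numbered striata correlated with r = -0.0097, -0.00757 and -0.0319 across CpGs, and no striatum correlated best with its own number. With the rat as a block over both of its sides, 5 CpGs had q under 0.01 for treatment by side, compared with 2 without it and 1 with a minimum of 20 reads.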

Other observations

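Several exons and introns named in the study's lists lay outside the threshold with large differences. In an exon of Aldh1a3, an enzyme of retinoic acid synthesis, methylation was 94.2, 100 and 95.7% in L-DOPA and 0, 51.2 and 0% in L-DOPA + R (-74.5 points, q = 0.0405, logistic model). In an exon of Baiap3 it was 5.71, 0 and 0%, against 100, 52.6 and 52.4% (69.2 points, q = 0.0801). In an intron of Ppp1r16b it was 45.5, 46.7 and 42.2%, against 10.5, 6.67 and 21.7% (-31.8 points, q = 0.0145). In each, the groups did not overlap, as was the case for 7.16% of all tested CpGs. The CpG just outside the threshold, at 43996577 of chromosome 17, had 80.8, 86.7 and 92% against 46.7, 53.1 and 48% (q = 0.0109), and 92 CpGs had q between 0.01 and 0.05.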
